A study of Mus musculus with 8 samples.

Results

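miR-378 and miR-378* are the 2 strands cut from 1 small RNA hairpin, and their levels were measured in skeletal muscle of diabetic and control mice. They were chosen by name, as the non-control array rows whose miRNA name was mmu-miR-378 or mmu-miR-378*, and they are 2 of the 567 mouse miRNAs on each array. The mice were of the C57BL/KsJ background. The design text pairs obese, diabetic animals with db/db, which lack a working leptin receptor, and normal controls with db+. Titles, descriptions and group entries name 4 control and 4 diabetic samples, but the strain entries give db/db for the control and db+ for the diabetic samples, so every direction below is diabetic minus control by title. Age, sex, the muscle taken and the number of animals behind each sample were not given in the sources used here, and p-values measure only the spread between these samples.

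The hairpin gene, now called Mir378a, lies inside Ppargc1b in the GRCm38.p6 gene table, and that host gene encodes the coactivator PGC-1beta, which drives mitochondrial and fatty acid oxidation genes. miR-378 is the strand named today for the 3-prime arm and miR-378* the strand of the 5-prime arm. Both are made in tissues rich in mitochondria such as heart, skeletal muscle and brown fat. Known targets are Crat, a mitochondrial carnitine acetyltransferase, and Med13, a subunit of the Mediator complex, and mice that lack both strands resist weight gain on a fatty diet. In myoblasts miR-378 represses MyoR, a repressor of differentiation, and miR-378* has been tied to the estrogen-related receptor pathway through Esrrg and Gabpa.

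RNA was labelled with Cy3 and each of 8 arrays on 1 slide read 1 sample. Each group filled its own row of the slide, so row and group cannot be told apart. Array brightness, the 75th percentile of intensity over the 152 probes detected on every array, ran from 219 on diabetic 4 to 618 on control 2, and the other 6 arrays lay between 308 and 479. Control 2 and diabetic 4 therefore lay apart from the rest, at opposite ends. Diabetic 4 also had the fewest detected miRNAs, 102, against 112 to 147 on the other arrays. Results are also given without control 2, and in places without diabetic 4. Of 8 muscle marker strands, 6 were detected on every array and miR-499 on none. Muscle markers summed to 54.5 to 106 times the array's 75th percentile on control and 81.7 to 111 times on diabetic arrays. Leukocyte markers summed to 0.461 to 2.15 on control and 0.290 to 0.747 on diabetic arrays, with miR-146a and miR-150 detected on none. Of 5 neural marker strands, miR-128 was detected on every array and those of miR-124 and miR-9 on none, and the list summed to 0.168 to 0.244 on control and 0.168 to 0.204 on diabetic arrays. Erythroid markers summed to 0.867 to 2.43 on control and 0.692 to 1.51 on diabetic arrays, and the part of these cells in the results was not tested.

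Each strand was read by 2 probes of 10 spots, and both strands were detected on all 8 arrays. For miR-378 every spot used was well above background, 76 of 76 for the dimmer probe and 75 of 75 for the brighter one. The same held for miR-378*, with 73 of 73 and 75 of 75 spots, and 0 spots of either strand were saturated. Raw medians of the dimmest probe, one of miR-378*, were 110.5 to 134 against a local background of 30.75 to 33.75. The background-subtracted intensities used here were lower for that probe, 33.7 to 55.7. More than the local background had thus been taken off. Spots of a probe on an array had a median coefficient of variation of 12.4% and 6.88% for the probes of miR-378 and of 9.70% and 6.67% for those of miR-378*. The mean of a probe was thus known to a median standard error of 2.18% to 3.92%. The noisiest case was the brighter miR-378 probe on control 1, where spots varied by 19.0%.

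miR-378 had a mean intensity, before any scaling, of 286 on control 1, 225 on control 2, 219 on control 3 and 177 on control 4. Its diabetic values were 225, 347, 267 and 219 on arrays 1 to 4. Control 4 was the lowest and diabetic 2 the highest, and the ranges of the groups overlapped. miR-378* had a mean intensity of 85.4 on control 1, 82.7 on control 2, 71.8 on control 3 and 76.1 on control 4. Diabetic arrays 1 to 4 gave 79.1, 89.1, 67.5 and 51.1. These intensities spanned little on the control arrays, with a coefficient of variation of 7.80% for miR-378* against 37.2% for array brightness. The highest miR-378* intensity over the 8 arrays was 1.74 times the lowest, while the brightest array was 2.82 times the dimmest.

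**Figure D1:**
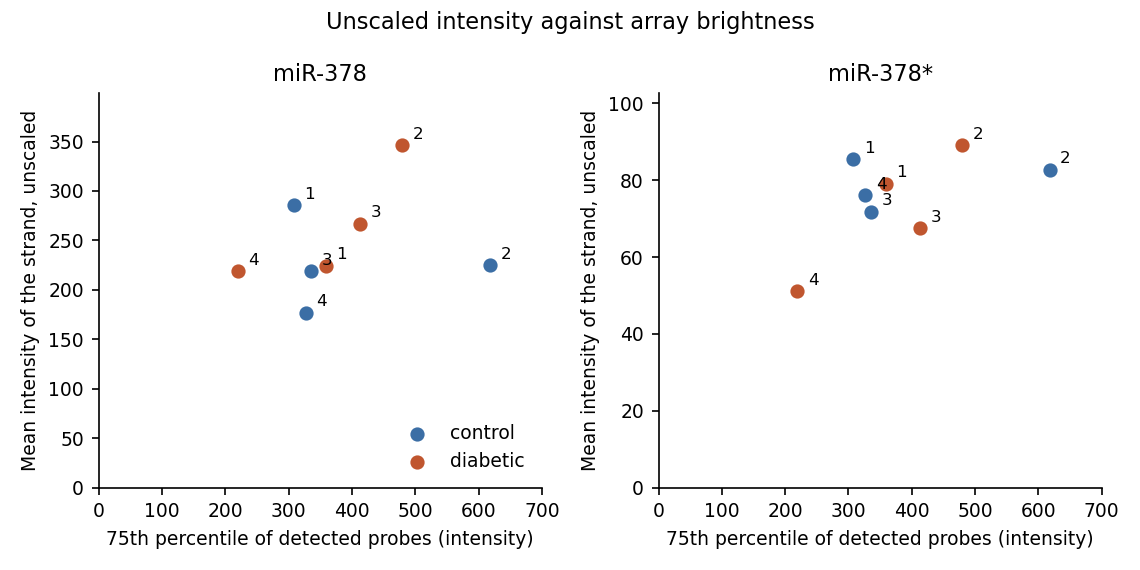
Unscaled mean intensity of miR-378 (left) and miR-378* (right) against the 75th percentile of detected probes on the same array, 1 point per array, numbered by replicate. Control 2 lies far to the right at 618, but its miR-378 intensity, 225, is close to that of diabetic 1, also 225.

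To compare arrays, each intensity was divided by the brightness of its array and put on a log2 scale, on which 0 equals that 75th percentile. The scaled log2 level of miR-378 was -0.11 on control 1, -1.46 on control 2, -0.61 on control 3 and -0.88 on control 4. Diabetic arrays 1 to 4 had levels of -0.68, -0.47, -0.63 and -0.0047. Control 2 was the lowest of all arrays and diabetic 4 the highest, which were also the brightest and the dimmest array. Only diabetic 4 exceeded every control array, and the groups overlapped. The scaled log2 level of miR-378* was -1.85 on control 1, -2.90 on control 2, -2.23 on control 3 and -2.10 on control 4, and -2.18, -2.43, -2.61 and -2.10 on diabetic arrays 1 to 4. Here no diabetic array lay above all the controls, and control 2 was again the lowest.

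**Figure D2:**
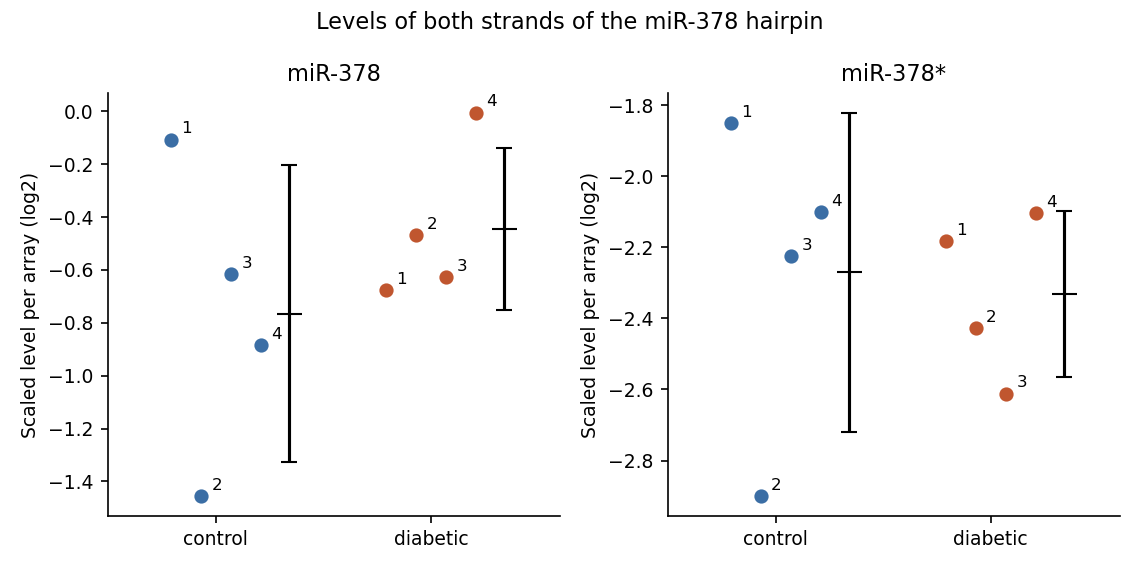
Scaled log2 level of miR-378 (left) and miR-378* (right) on each array, numbered by replicate, with the group mean and SD (n = 4) as black bars. The groups overlap for both strands, and control 2 is the lowest array in both panels.

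Neither strand differed between diabetic and control muscle beyond the spread between arrays. The miR-378 level was -0.77 ± 0.56 on the control and -0.44 ± 0.31 on the diabetic arrays (SD, n = 4), and the groups differed by 0.32 on the log2 scale (SE 0.29, limma adjusted p = 0.699). That is 1.25-fold, with a 95% interval from 0.803-fold to 1.94-fold, so neither a modest fall nor a near doubling lies outside it. The miR-378* level was -2.27 ± 0.45 on the control and -2.33 ± 0.23 on the diabetic arrays (SD, n = 4), and the groups differed by -0.061 on the log2 scale (SE 0.25, limma adjusted p = 0.886). Its fold was 0.958, with a 95% interval from 0.652-fold to 1.41-fold. In whole muscle, fewer cells of a type and less RNA per cell cannot be told apart. Two-sided exact permutation tests over the 70 assignments of arrays gave p = 0.371 for miR-378 and p = 0.857 for miR-378*, where the smallest possible p is 0.0286. In the same fit 4.76% of the 126 tested miRNAs were called, 6 higher and 0 lower, with 8 higher and 13 lower at an unadjusted p under 0.05. A smaller p than that of miR-378 belonged to 47 of the 126 and a smaller p than that of miR-378* to 113. Over the 126 miRNAs the log2 difference had a median of -0.060, so miR-378* lay almost on it, at -0.0013 from the median, and miR-378 lay 0.38 above.

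The size of the miR-378 difference depended on single arrays. Without control 2 it was 0.091 (SE 0.24, limma adjusted p = 0.830), and without control 1, the highest control, it was 0.54 (SE 0.27, limma adjusted p = 0.428). Without diabetic 4 it was 0.17. The difference of miR-378* was -0.27 (SE 0.18, limma adjusted p = 0.454) without control 2 and 0.078 without control 1. The miR-378 value was positive in all 23 alternatives and passed the threshold in 0 of them. Those that changed the floor, the detection filter, the variance estimate or added a term for replicate number could change its p but not its size. Weighting the arrays did change sizes, to 0.17 for miR-378 (limma adjusted p = 0.664) and -0.25 for miR-378* (limma adjusted p = 0.484). Dividing by the 75th percentile of all mouse probes gave 0.64 for miR-378 and 0.26 for miR-378*. That setting moved the median of all tested miRNAs to 0.26. Another divisor shifts all miRNAs of an array alike, so relative to the median both values stayed at 0.38 and -0.0013. Relative to the median they were 0.15 and -0.045 with quantile normalization, and 0.24 and -0.015 with normexp background correction.

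**Figure D3:**
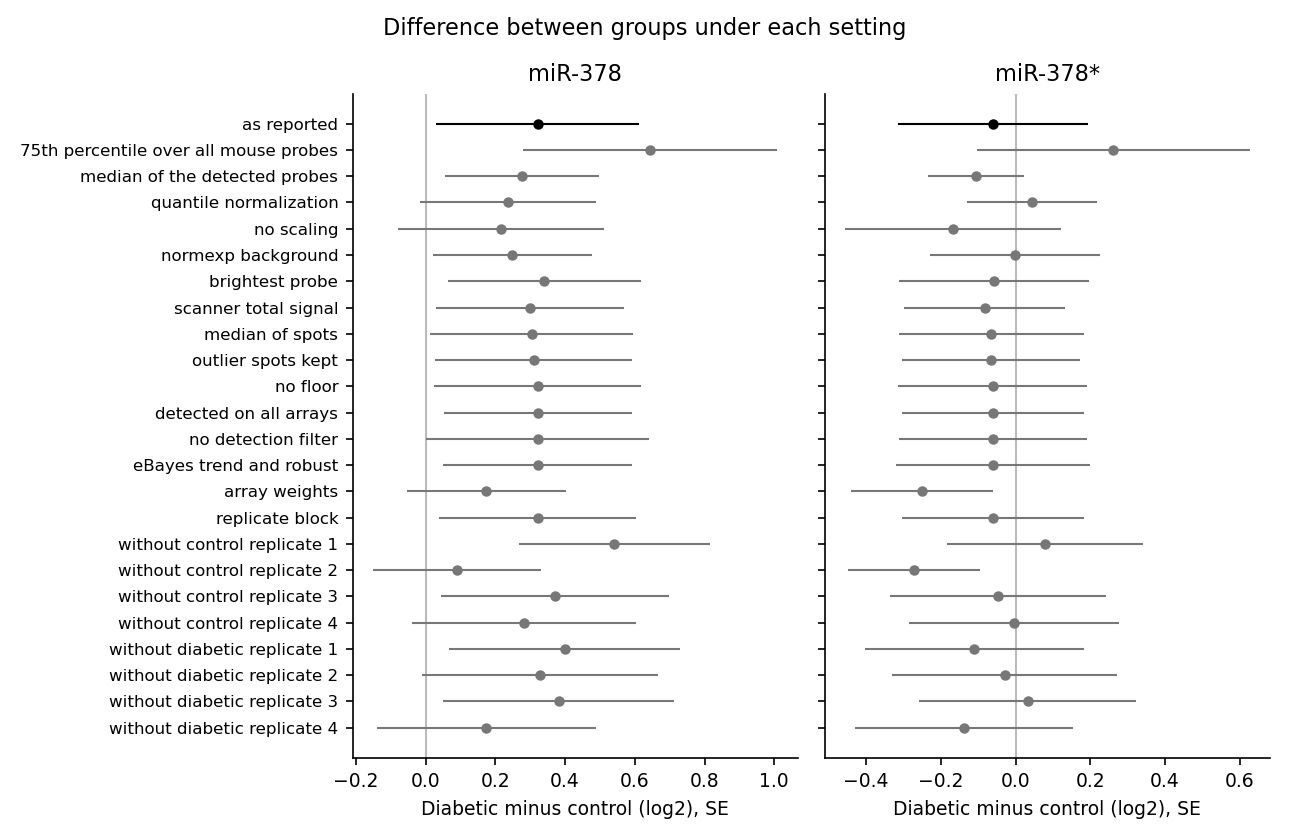
Log2 difference, diabetic minus control, of miR-378 (left) and miR-378* (right) with its standard error, as reported (black) and under each of 23 alternatives (grey). miR-378 runs from 0.091 to 0.64, always above 0, and miR-378* lies on both sides of 0, from -0.27 to 0.26. Alternatives of the floor, the detection filter, the variance estimate and the replicate term keep the reported value of both strands. Array weights do not, with 0.17 for miR-378 and -0.25 for miR-378*.

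The probes of each strand gave like differences. The brighter probe of miR-378 had a mean level of -0.41 ± 0.53 on the control and -0.070 ± 0.30 on the diabetic arrays (SD, n = 4), a difference of 0.34 (two-sided exact permutation p = 0.371), and the dimmer one differed by 0.29 (p = 0.457 in the same exact test). For miR-378* the brighter probe differed by -0.058 and the dimmer one by -0.069. The log2 ratio of the 2 probes of a strand had an SD over the 8 arrays of 0.091 for miR-378 and 0.050 for miR-378*. Levels of single probes had SDs of 0.44 to 0.49 for miR-378 and 0.33 to 0.34 for miR-378*, several times as large. The probes of a strand thus moved together from array to array.

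Both strands varied more on the control than on the diabetic arrays. The SD of miR-378 was 0.56 against 0.31, and that of miR-378* 0.45 against 0.23. The median SD over all tested miRNAs was 0.43 on the control and 0.23 on the diabetic arrays, so miR-378* was typical of the arrays and miR-378 somewhat more variable. Before scaling, the order turned round for both strands, with a coefficient of variation of 7.80% on control and 22.8% on diabetic arrays for miR-378* and of 19.8% and 22.3% for miR-378. The scaled level of miR-378* went against array brightness (Pearson r = -0.83, exact permutation p = 0.0122, 0.0488 after Benjamini-Hochberg adjustment over 8 relations; Spearman rho = -0.88, exact permutation p = 0.00724, adjusted 0.0579; n = 8). Without control 2 and diabetic 3, the arrays farthest from its median, r was -0.62 (exact permutation p = 0.136). For miR-378 the same r was -0.78 (exact permutation p = 0.0263, adjusted 0.0702; Spearman rho = -0.60, exact permutation p = 0.132, adjusted 0.265; n = 8), but -0.084 without control 2 and diabetic 4, so that relation rested on those arrays. A scaled level contains the brightness as its divisor, so the measures are not independent.

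The balance of the strands, the log2 level of miR-378 minus that of miR-378* on the same array, does not change when an array is multiplied by any factor. Its absolute size also holds the unequal response of different probes, so only its change is read. The balance was 1.74 on control 1, 1.44 on control 2, 1.61 on control 3 and 1.22 on control 4. It was 1.51, 1.96, 1.98 and 2.10 on diabetic arrays 1 to 4. Diabetic 2, 3 and 4 lay above every control array, and diabetic 1 lay within the control range. The mean was 1.50 ± 0.23 on the control and 1.89 ± 0.26 on the diabetic arrays (SD, n = 4), a difference of 0.38 (SE 0.17) that did not pass (two-sided exact permutation p = 0.0857). Control 2, the lowest array for both strands, lay inside the control range here, and the difference without it was 0.36. Leaving out 1 array at a time gave 0.29 to 0.51, with exact permutation p from 0.0571 to 0.171 over 35 assignments. Each of the 4 pairings of a miR-378 probe with a miR-378* probe gave a difference of 0.35 to 0.41 and put 3 diabetic arrays above all controls. With quantile normalization, which is not a simple factor, the difference was 0.19 (exact permutation p = 0.314), and with normexp background correction 0.25 (exact permutation p = 0.0857).

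**Figure D4:**
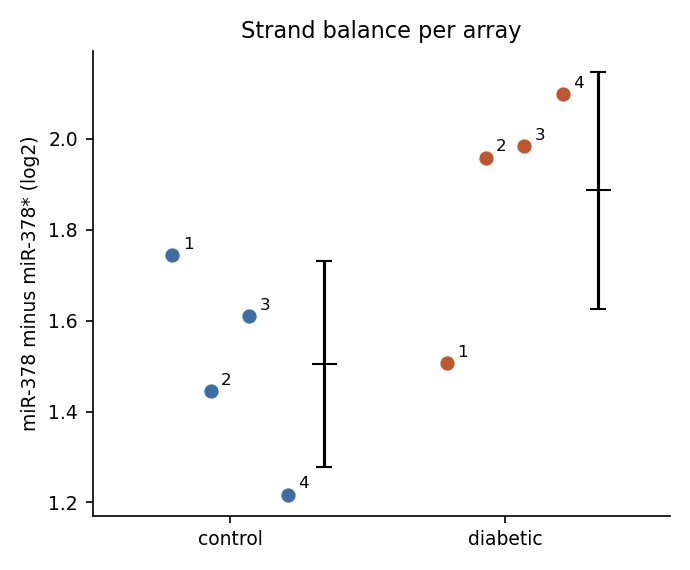
Strand balance, the log2 level of miR-378 minus that of miR-378*, on each array, numbered by replicate, with group means and SDs (n = 4) as black bars. Diabetic 2, 3 and 4 lie above all controls at 1.96 to 2.10, and diabetic 1, at 1.51, lies among them.

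Over the 8 arrays the levels of the strands had a Pearson r of 0.74 (exact permutation p = 0.0373, 0.0746 after Benjamini-Hochberg adjustment over 8 relations) and a Spearman rho of 0.43 (exact permutation p = 0.299, adjusted 0.342). Without control 2 and diabetic 4, the arrays farthest from the median of miR-378, r was 0.38 (exact permutation p = 0.464), so the relation rested on them. With each group's mean removed r was 0.84 (exact permutation p = 0.00920, adjusted 0.0488) and rho 0.74 (exact permutation p = 0.0458, adjusted 0.183), p-values that make no allowance for the removed means. That r was 0.43 (exact permutation p = 0.399) without control 1 and control 2. On unscaled intensities r was 0.39 (exact permutation p = 0.333, adjusted 0.444) and rho 0.67 (exact permutation p = 0.0831, adjusted 0.222). Among the 9 pairs of tested strands matched by name as from 1 hairpin, the r of scaled levels was the fifth highest. It was 0.99 for the strands of the miR-29c hairpin and 0.97 for those of miR-30a, and -0.16 for miR-24 and miR-24-1*. The change in balance was the third largest of the 9 by size, behind miR-24 with miR-24-1* at -0.87 and miR-133a with miR-133a* at -0.42. Only in miR-30a with miR-30a* did the balance of every diabetic array exceed that of every control array. That difference was 0.12, with SDs of 0.067 on control and 0.038 on diabetic arrays. The median size over the 9 was 0.17, and the balance was higher on the diabetic arrays in 6 of them. In miR-24 with miR-24-1* and miR-30c with miR-30c-2*, only the star strand's name marks 1 numbered hairpin copy. The other strand may therefore not come from that hairpin alone. These pairs had the lowest r of the 9, -0.16 and 0.31, so the ranks rest in part on unlike pairs. Whether the pairs differ from each other in this respect was not tested.

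Of the other tested miRNAs, the 5 whose scaled levels were most like those of each strand were taken by Pearson r over the 8 arrays, as a description. All share the scaling of their arrays, and the median r with the 124 others was 0.24 for miR-378 and 0.53 for miR-378*. Closest to miR-378 were miR-361 (r = 0.91), the muscle-specific miR-133b (r = 0.84) and miR-133a (r = 0.84), miR-350 (r = 0.83) and miR-365 (r = 0.83). These values were between 0.27 and 0.59 without control 2 and diabetic 4. Closest to miR-378* were miR-133a (r = 0.97), let-7d (r = 0.96), miR-133b (r = 0.96), let-7a (r = 0.95) and let-7b (r = 0.95). Without control 2 and diabetic 3 these were 0.83 to 0.94. The arrays left out were those farthest from each strand's own median, so the reduced ranges of the strands rest on different arrays. By contrast miR-1, the other abundant muscle miRNA, ranked 20 of 124 for miR-378 (r = 0.65) and 67 of 124 for miR-378* (r = 0.51), and its r was -0.70 and -0.76 without the same arrays. miR-378 itself ranked behind 31 of the others in its likeness to miR-378*.

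The mature sequences, from RefSeq (GRCm38.p6), are shown for the let-7 members among them and for miR-361. A shared seed (bases 2 to 8, in capitals) and a nearly shared body show the let-7 members to be close relatives.
let-7a: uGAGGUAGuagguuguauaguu
let-7b: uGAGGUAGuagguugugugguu
let-7d: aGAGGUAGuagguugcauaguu
miR-361: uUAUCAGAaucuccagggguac
The 3 let-7 members share 1 seed and differ in few bases, so their likeness to miR-378* need not be 3 separate observations, and cross-binding between their probes was not tested. The sequences of miR-133a and miR-133b, which share a family name, were not compared. Their likeness to each strand need not be separate observations either. In that build they lie at chr13:48538239-48538260 (let-7a, minus strand), chr15:85707325-85707346 (let-7b, plus strand) and chr13:48536078-48536099 (let-7d, minus strand), and miR-361 at chrX:113074867-113074888 (minus strand). The table lists let-7a at this position, in Mirlet7a-1.

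A ratio to another miRNA on the same array is free of the scaling. The log2 ratio of miR-133a to miR-378* had an SD over the 8 arrays of 0.11, as did those of let-7d, let-7a and miR-133b. That of let-7b had an SD of 0.15, and the median for the 124 others was 0.34. The neighbours of each strand were chosen by their likeness on these same arrays, so small spreads are in part a result of that choice. The ratio of miR-133a to miR-378 had an SD of 0.25, against a median of 0.51, and the ratio with the smallest spread was to miR-361, at 0.23. The ratio of miR-1 to miR-378 differed between the groups by 0.018 and that of miR-1 to miR-378* by 0.40. Like miR-378*, miR-133a had a small log2 difference between the groups, though of the other sign, 0.095 (SE 0.28, limma adjusted p = 0.879). Like miR-378, miR-1 had a positive one, 0.34 (SE 0.22, limma adjusted p = 0.518). Unlike miR-378, its groups did not overlap, with a highest control level of 4.88 and a lowest diabetic level of 4.91. Groups did not overlap in 8.73% of tested miRNAs.

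**Figure D5:**
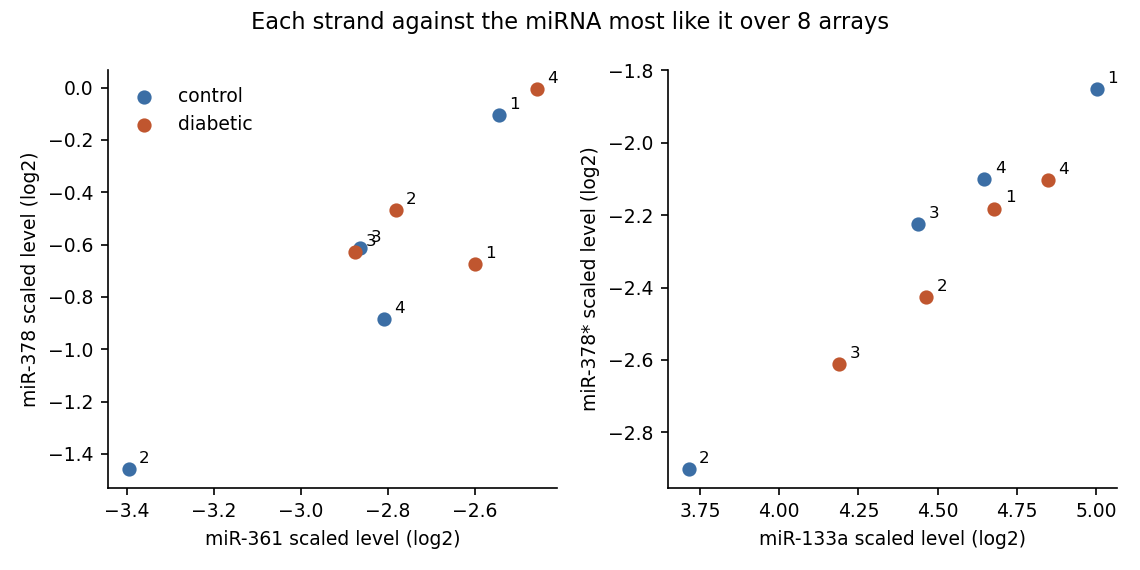
Scaled log2 level of miR-378 against that of miR-361 (left) and of miR-378* against that of miR-133a (right), 1 point per array, numbered by replicate. The right-hand points lie close to a line (r = 0.97), and on the left control 2 lies far below the other arrays (r = 0.91, or 0.59 without control 2 and diabetic 4).

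The miRNAs around the strands were summarised by lists of names, both arms counted. They are read against all 126 tested miRNAs, of which 4.76% were called, with 58 positive and 68 negative log2 differences and a median of -0.060. Lists of this size would hold about 1 call or none at that share, so their counts say little about them. Of 16 strands linked to mitochondria or to PGC-1 coactivators, 9 were tested and 0 passed, with 5 positive and 4 negative log2 differences and a median of 0.095. The smallest p there belonged to miR-338-3p, known to target a cytochrome c oxidase subunit in neurons, at 1.41 (SE 0.38, limma adjusted p = 0.0581), with every diabetic array above every control array. It passed without control 3 (limma adjusted p = 0.0258) and without control 4 (limma adjusted p = 0.0345). Without any other single array it did not pass (limma adjusted p from 0.0571 to 0.152). A separation of all diabetic from all control arrays was seen in 8.73% of tested miRNAs and in neither strand of the miR-378 hairpin. The next was miR-133a* at 0.51 (SE 0.25, limma adjusted p = 0.383), or 0.28 without control 2. Of 21 strands tied to fat cells, 13 were tested and 1 rose, miR-193, at 1.16 (SE 0.26, limma adjusted p = 0.0283). Its call was lost without control 1, control 2 or any 1 of the diabetic arrays, with differences of 0.98 to 1.23 (limma adjusted p from 0.0530 to 0.102). The share called, 1 of 13, is near the 4.76% of all tested miRNAs. The median of that list was 0.13, beside -0.060 for all tested miRNAs, and its next member was miR-107 at -0.37 (limma adjusted p = 0.441).

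Of 21 myogenic strands 12 were tested and 0 passed, with 7 positive and 5 negative differences and a median of 0.10, where 4.76% of all tested miRNAs were called. The member with the smallest p was miR-206, which rises in regenerating muscle, at -1.33 (SE 0.44, limma adjusted p = 0.132), and at -0.87 (SE 0.34, limma adjusted p = 0.194) without diabetic 4. Like miR-378, many miRNAs lie in introns of protein-coding genes. Of 46 such strands on a list by host gene 21 were tested and 0 passed, with 8 positive and 13 negative differences and a median of -0.065, again beside 4.76% called and a median of -0.060 over all tested miRNAs. miR-338-3p, whose hairpin lies in Aatk, had the smallest p of that list, and miR-342-3p, whose hairpin lies in Evl, followed at -0.80 (SE 0.23, limma adjusted p = 0.0611). miR-342-3p passed without control 3 (limma adjusted p = 0.0383) but not without any other single array (limma adjusted p from 0.107 to 0.187). The log2 differences of this list ran from -0.80 to 1.41, and miR-378, at 0.32, and miR-378*, at -0.061, lay inside that range.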

How the data were processed

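Per the file headers, the arrays were read with Agilent Feature Extraction 10.5 on a design that names mm9. The deposited values are spot intensities from which a spatially detrended background was subtracted; arrays were not normalized to each other. The deposited files also hold flags (other values, 0 or 1) for outlier spots, saturation and detection. The mean of the non-outlier spots gave a probe's intensity. A probe was detected where at least 50% of its spots were well above background. Arrays were divided by their 75th percentile over 152 probes detected on all 8 arrays, probes of a miRNA averaged, and levels raised to a floor of 0.0162 and put on a log2 scale. The 126 miRNAs detected on at least 4 arrays were tested with limma 3.58.1 in R 4.3.3 (group as the single term, Benjamini-Hochberg adjustment, threshold 0.05), a step tested on simulated data. Single values had two-sided exact permutation tests. The number of arrays limits precision. The planned normexp alternative (offset 50) used median spot signals, because the files held no mean spot signal column. Named miRNAs were both strands, the 5 most like each by Pearson r, the 2 with the smallest p of each list, miR-1 and miR-133a; others named were chosen after their values were seen. Members and lists were chosen with earlier results of these data known. Gene names came from a GRCm38.p6 table. Figures used matplotlib 3.10.9.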

Additional observations from a re-analysis of the deposited data

Results flagged for a closer look

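Among the levels, balances, probes and brightness behind the values above, 46 groups of 4 arrays were screened for a single array far from the other 3, and 2 were found. Chance flags about 1 group in 20. The brightness of control 2, on the log2 scale, was 9.27, while the other control arrays lay between 8.27 and 8.39. Both strands of the miR-378 hairpin had their lowest scaled level on that array, and their values without it are given above. The level of miR-206 on diabetic 4 was -1.75, while the other diabetic arrays lay between -0.014 and 0.20. Neither strand of the miR-378 hairpin had such an array in either group.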

How the results depend on the processing

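Over 23 alternatives for each strand, neither passed the threshold (limma adjusted p from 0.382 to 0.998 for miR-378 and from 0.454 to 0.999 for miR-378*). The miR-378* difference turned positive with the 75th percentile over all mouse probes (0.26) and quantile normalization (0.044), and ran from -0.27 to 0.078 when 1 array was left out; that of miR-378 ran from 0.091 to 0.54. The strand balance was positive and short of the threshold in all 19 alternatives, with a size of 0.19 to 0.51. Other divisors, no scaling and no floor could change neither its size nor its p, so they say nothing about its stability. The replicate block could not change its size, and its exact sign-flip p was 0.25, where 4 pairs allow no p below 0.125. The unadjusted exact permutation p of the strand correlation was 0.0373 (0.0746 after adjustment, not a call). It rose above 0.05 with the median of the detected probes (r = 0.47, exact permutation p = 0.240) and without scaling (r = 0.39, exact permutation p = 0.333). The same held with the scanner total signal (r = 0.67, exact permutation p = 0.0668) and with outlier spots kept (r = 0.68, exact permutation p = 0.0673). Leaving out control 1 (exact permutation p = 0.119), control 2 (p = 0.360), control 3 (p = 0.0550) or diabetic 4 (p = 0.0575) also raised it above 0.05. With 1 array left out r ran from 0.42 to 0.85. Higher calls over all miRNAs, 6 as reported, were 0 without scaling, 2 without the detection filter and 2 to 7 with 1 array left out. Lower calls, 0 as reported, were 1 with the percentile over all mouse probes, 2 with the median of the detected probes, 3 with normexp, 2 with the brightest probe, 2 for miRNAs detected on all arrays, 1 with array weights and 0 to 3 with 1 array left out. Replicate numbers match slide columns and the labels do not say that they pair animals. Deviations of same-numbered arrays correlated at 0.21, 0.082, 0.51 and -0.29, so pairing was not assumed. With the replicate block miR-378 was 0.32 (limma adjusted p = 0.669), miR-378* -0.061 (limma adjusted p = 0.885), and 7 miRNAs were higher and 3 lower. The cause of these changes was not tested. With 4 arrays a group, 95% intervals of both strands span over 1 unit of log2.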
